A study of Homo sapiens with 2 samples.

Results

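The Williams-Beuren region of chromosome 7 holds BUD23, the gene targeted in this experiment, and the genes examined here are its neighbours. They were taken by position alone, as every gene listed on chromosome 7 with a start between 72500000 and 75500000 (GRCh38), without BUD23 and EIF4H. This gave 55 of the 20981 listed genes, of which 31 are protein-coding in GENCODE release 29 and 24 are pseudogenes or noncoding RNAs. The RNA came from PANC-1, per the labels, a line established from a pancreatic duct carcinoma. Its cells had been transfected with a short hairpin RNA against WBSCR22, the older symbol of BUD23 (shWBSCR22), or with a control hairpin (shCtrl). The labels give no hairpin sequence, no time after transfection and no clone. Each group held 1 library, so every difference below compares these libraries, has no replicate check and carries no p-value.

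The region is named after Williams-Beuren syndrome, a developmental disorder caused by loss of its genes from 1 of the chromosome copies. Long, near-identical repeats flank the commonly lost interval and recombine with each other, and they carry copies and pseudogenes of NSUN5, GTF2I, GTF2IRD2, POM121, STAG3, PMS2 and other genes. Between the repeats lie single-copy genes of unrelated function: transcription factors, chromatin subunits, membrane proteins, mitochondrial proteins and cytoskeletal regulators. BUD23 itself is a methyltransferase that acts on ribosomal RNA of the small subunit.

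BUD23 is the fixed point of the comparison. BUD23 (ENSG00000071462, chromosome 7, 73683025 to 73705161, plus strand) had 1892 counts in shWBSCR22 and 3487 in shCtrl, a log2 ratio of shWBSCR22 over shCtrl of -0.72 (counting interval -0.80 to -0.63, wider interval -1.01 to -0.43). That is a difference of -39.1%, and 3.76% of 1355 genes at a similar level had a lower ratio. The question asked along the position is whether its neighbours share that direction. At 1 end BUD23 lies head to head with DNAJC30, and 359 exon bases are annotated to both genes on opposite strands, which is 14.4% of the exon bases of DNAJC30. At the other end it runs into STX1A, also on the opposite strand, with 662 shared exon bases, or 17.9% of those of STX1A. No other member overlaps BUD23. The sources used here do not say whether reads were counted by strand, so reads of these genes cannot be told apart where they overlap.

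Promoters of 4 members are printed because the results below turn on them: DNAJC30, whose start faces that of BUD23; TMEM270, which had no counts in shCtrl; and MLXIPL and CLIP2, well-expressed members with more counts in shWBSCR22. RefSeq (GRCh38.p14) holds a promoter for 26 of the 55 members, taken from 250 bases before to 50 after the start. Capitals mark GC boxes (GGGCGG) and CCAAT boxes (CCAAT) on either strand, and neighbouring GC boxes may overlap.
DNAJC30 (chr7:73683404-73683703, minus strand): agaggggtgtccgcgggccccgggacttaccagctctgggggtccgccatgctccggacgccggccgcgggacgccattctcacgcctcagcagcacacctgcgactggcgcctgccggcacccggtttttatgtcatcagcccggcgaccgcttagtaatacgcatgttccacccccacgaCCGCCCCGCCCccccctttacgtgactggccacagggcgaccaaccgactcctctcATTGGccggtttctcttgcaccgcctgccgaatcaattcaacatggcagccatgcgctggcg
TMEM270 (chr7:73860909-73861208, plus strand): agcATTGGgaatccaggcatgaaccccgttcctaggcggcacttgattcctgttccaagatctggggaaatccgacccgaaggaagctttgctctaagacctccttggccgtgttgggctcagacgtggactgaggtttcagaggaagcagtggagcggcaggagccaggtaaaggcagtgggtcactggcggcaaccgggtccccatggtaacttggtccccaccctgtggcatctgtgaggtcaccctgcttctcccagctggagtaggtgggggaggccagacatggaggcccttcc
MLXIPL (chr7:73624473-73624772, minus strand): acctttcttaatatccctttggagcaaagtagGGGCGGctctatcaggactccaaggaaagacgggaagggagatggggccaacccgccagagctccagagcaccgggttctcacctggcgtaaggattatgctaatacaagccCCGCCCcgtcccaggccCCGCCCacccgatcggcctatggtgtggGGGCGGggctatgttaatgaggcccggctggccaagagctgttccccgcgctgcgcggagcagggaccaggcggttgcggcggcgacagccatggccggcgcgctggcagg
CLIP2 (chr7:74289157-74289456, plus strand): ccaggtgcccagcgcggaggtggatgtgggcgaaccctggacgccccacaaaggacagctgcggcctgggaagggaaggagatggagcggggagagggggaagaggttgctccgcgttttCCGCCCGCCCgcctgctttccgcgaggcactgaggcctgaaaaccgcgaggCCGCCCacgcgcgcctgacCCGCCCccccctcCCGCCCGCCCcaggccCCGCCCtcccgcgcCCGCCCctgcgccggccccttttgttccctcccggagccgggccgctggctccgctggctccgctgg
The DNAJC30 promoter and the promoter of BUD23 on the other strand share 243 of their 300 bases. DNAJC30 held 2 GC boxes and 1 CCAAT box, MLXIPL 4 GC boxes and CLIP2 8. GC boxes occur in 44.6% and CCAAT boxes in 35.7% of all 27305 RefSeq promoters of this length. TMEM270 held 1 CCAAT box and no GC box, and its 9 CpG dinucleotides compare with 30 in DNAJC30, 23 in MLXIPL, 33 in CLIP2 and a median of 14 over all promoters. Of further motifs searched on both strands, TATAAA (12% of all promoters), CACGTG (7.43%) and CCGGAAG (10.7%) had no match in these 4 windows. Such matches describe the letters of the window and nothing more. The 4 printed promoters were picked with their values known. Other well-expressed members with a ratio above 0 held 5 (CLDN4), 23 (RCC1L), 28 (TBL2), 35 (GTF2IRD1) and 39 (RFC2) CpG dinucleotides. A link between CpG content and level or ratio was not tested.

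Stretches of the duplicated genes are printed because their copies gave different ratios. Each shows the first 120 coding bases of a coding exon of the principal GENCODE release 29 transcript of the first-named gene. That exon was the longest with a close match in the first copy printed under it, so the stretches were picked for likeness. Under it stands the best match without gaps in transcripts of the copies (GRCh38). Capitals mark bases that differ between copies of that gene.
NSUN5 (chr7:73303917-73304036, minus strand): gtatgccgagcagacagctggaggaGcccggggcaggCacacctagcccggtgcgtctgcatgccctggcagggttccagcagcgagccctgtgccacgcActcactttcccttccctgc
NSUN5P1 (chr7:75415981-75416100, plus strand): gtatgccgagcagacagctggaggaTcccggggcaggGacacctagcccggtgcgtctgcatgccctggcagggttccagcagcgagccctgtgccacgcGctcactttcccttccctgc
NSUN5P2 (chr7:72948983-72949102, minus strand): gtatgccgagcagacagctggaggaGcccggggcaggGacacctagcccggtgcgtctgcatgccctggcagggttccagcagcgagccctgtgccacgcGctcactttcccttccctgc
GTF2IRD2 (chr7:74798146-74798265, minus strand): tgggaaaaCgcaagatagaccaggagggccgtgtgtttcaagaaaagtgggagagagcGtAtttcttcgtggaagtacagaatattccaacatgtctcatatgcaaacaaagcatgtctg
GTF2IRD2B (chr7:75147694-75147813, plus strand): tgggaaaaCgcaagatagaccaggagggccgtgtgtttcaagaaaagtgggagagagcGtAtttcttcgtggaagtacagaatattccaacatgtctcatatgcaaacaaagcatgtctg
GTF2IRD2P1 (chr7:73244752-73244871, minus strand): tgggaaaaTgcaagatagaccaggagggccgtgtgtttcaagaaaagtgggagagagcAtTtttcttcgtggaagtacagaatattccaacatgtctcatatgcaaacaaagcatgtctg
GTF2I (chr7:74732479-74732598, plus strand): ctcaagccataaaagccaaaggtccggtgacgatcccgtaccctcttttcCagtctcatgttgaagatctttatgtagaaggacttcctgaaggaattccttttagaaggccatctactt
GTF2IP1 (chr7:75213470-75213589, minus strand): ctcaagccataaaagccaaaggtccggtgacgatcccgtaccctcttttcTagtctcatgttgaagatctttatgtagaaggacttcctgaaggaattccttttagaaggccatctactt
NSUN5P1 matched NSUN5 at 117 of 120 bases and NSUN5P2 at 118. GTF2IRD2B was identical to GTF2IRD2 over its stretch, and GTF2IP1 matched GTF2I at 119 bases, as did GTF2IP4, which is not printed. A read from such a stretch can be placed on more than 1 copy.

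The libraries held 15248099 counts in shWBSCR22 and 16121638 in shCtrl. CDKN2A, a cell-cycle inhibitor that the PANC-1 line is recorded to have lost, had 6346 counts in shWBSCR22 and 12740 in shCtrl, so the cell line label is taken as given and not as checked. Of 9 epithelial markers 6 reached 1 CPM (a count scaled to the library total) in each library, led by KRT8 and KRT18, whereas KRT19 was at 0 in both, EPCAM had 0 and 15 counts, and CDH1 0 and 2, in shWBSCR22 and in shCtrl. Of 6 listed fibroblast markers 4 reached 1 CPM in shWBSCR22 and 3 in shCtrl, with summed levels of 129 and 58.6 CPM, mostly COL1A1. Low counts clustered around 15 in shWBSCR22 and 8 in shCtrl. These were the most frequent low values after averaging over 3 neighbouring counts, with the very lowest counts left out. For this reason each log2 ratio has a 95% counting interval and a wider one, computed from counts divided by 15 and 8. Intervals in parentheses are wider ones unless named otherwise.

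Of the 55 members, 9 had 0 counts in both libraries, 15 more averaged under 1 CPM with at most 23 counts in either, and 31 averaged at least 1 CPM and were compared. The rule for a call asked for a log2 ratio of 1 or more in either direction, with 0 outside the counting interval. By this rule 3 members were higher in shWBSCR22, 6 were lower and 22 were neither. Over all 12980 compared genes the same rule called 12.2% higher and 11.9% lower, 24.1% together, beside 9 of the 31 members (9.68% higher and 19.4% lower). With the wider interval 2 members were higher (TMEM270 and GTF2IRD2) and 2 lower (LAT2 and STAG3L3), against 4.19% and 2.98% of all genes, 7.17% together, beside 12.9% of the members. Without the size rule, 6 members had a wider interval entirely above 0 and 2 entirely below, or 19.4% and 6.45%, as had 10.8% and 8.2% of all genes. With 31 members, each of these shares rests on 6 genes or fewer. Across the 31 members the median was 0.09 (95% interval from order statistics -0.41 to 0.47), and the median of all compared genes was -0.02. In bulk RNA such as this, fewer cells with a transcript and less transcript per cell cannot be told apart.

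**Figure D1:**
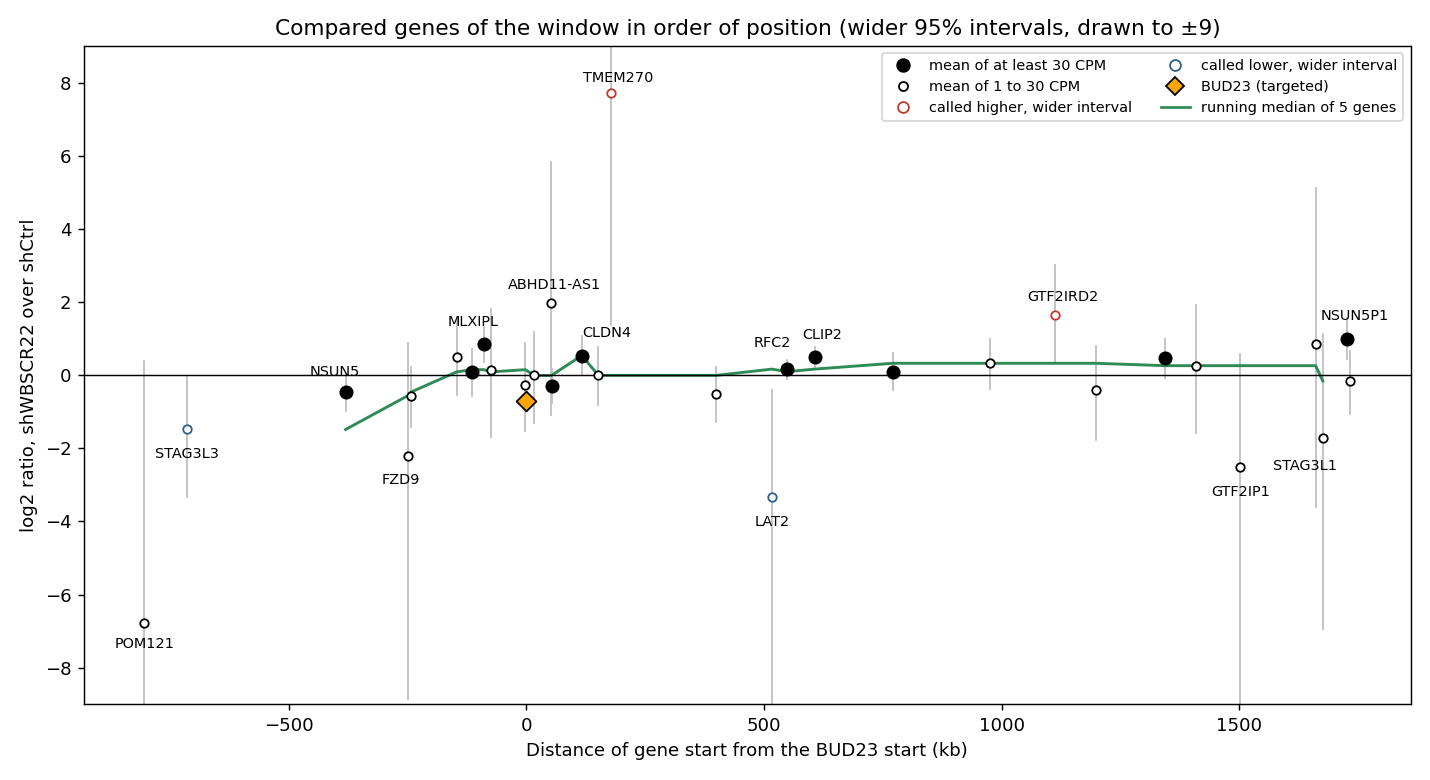
Log2 ratio of shWBSCR22 over shCtrl (vertical axis) for the 31 compared members against the distance of each gene start from the BUD23 start in kb. Vertical lines are wider intervals drawn to 9 in either direction, the line through the points is a running median over 5 genes, and BUD23 is the diamond at -0.72. Points of POM121 and TMEM270, at 0 in 1 library, rest on the 0.5 counts added. Most filled points, members of at least 30 CPM, sit at or above 0, and the points far from 0 are open.

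Along the position most members had a higher ratio than BUD23, as had most compared genes. Of the 31 compared members, 6 had a lower ratio than BUD23, and of the 10 with a mean of at least 30 CPM none did. The lower quartile was -0.49 over the members and -0.51 over all compared genes, both above BUD23. Among genes at a level similar to that of BUD23, 3.76% had a lower ratio. The running median over 5 neighbours was -1.49 around NSUN5, lower than BUD23, -0.56 around FZD9, between -0.01 and 0.54 from BCL7B to CLIP2, 0.32 from GTF2IRD1 to STAG3L2, 0.26 from RCC1L to PMS2P2 and -0.16 around STAG3L1. The 6 compared members whose start lies within 100 kb of the BUD23 start had a median log2 ratio of 0.07, with 3 above 0 and 3 below. The equal-width window above the region held 24 compared genes with a median of 0.18, and the rest of chromosome 7 held 581 with a median of -0.07. The window below held 1 compared gene, at -0.43.

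Summed over all members, the region took 14617 counts in shWBSCR22 and 14578 in shCtrl. These are 0.0959% (exact binomial interval 0.0943% to 0.0974%) and 0.0904% (0.0890% to 0.0919%) of the libraries, so the region as a whole held a slightly larger share in shWBSCR22 while BUD23 held a smaller one. Without RFC2, the member with the most counts, the shares were 0.0772% and 0.0728%. The intervals cover counting error only and treat every count as independent. No wider interval is given for these shares, so the difference between the libraries is described and was not tested.

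**Figure D2:**
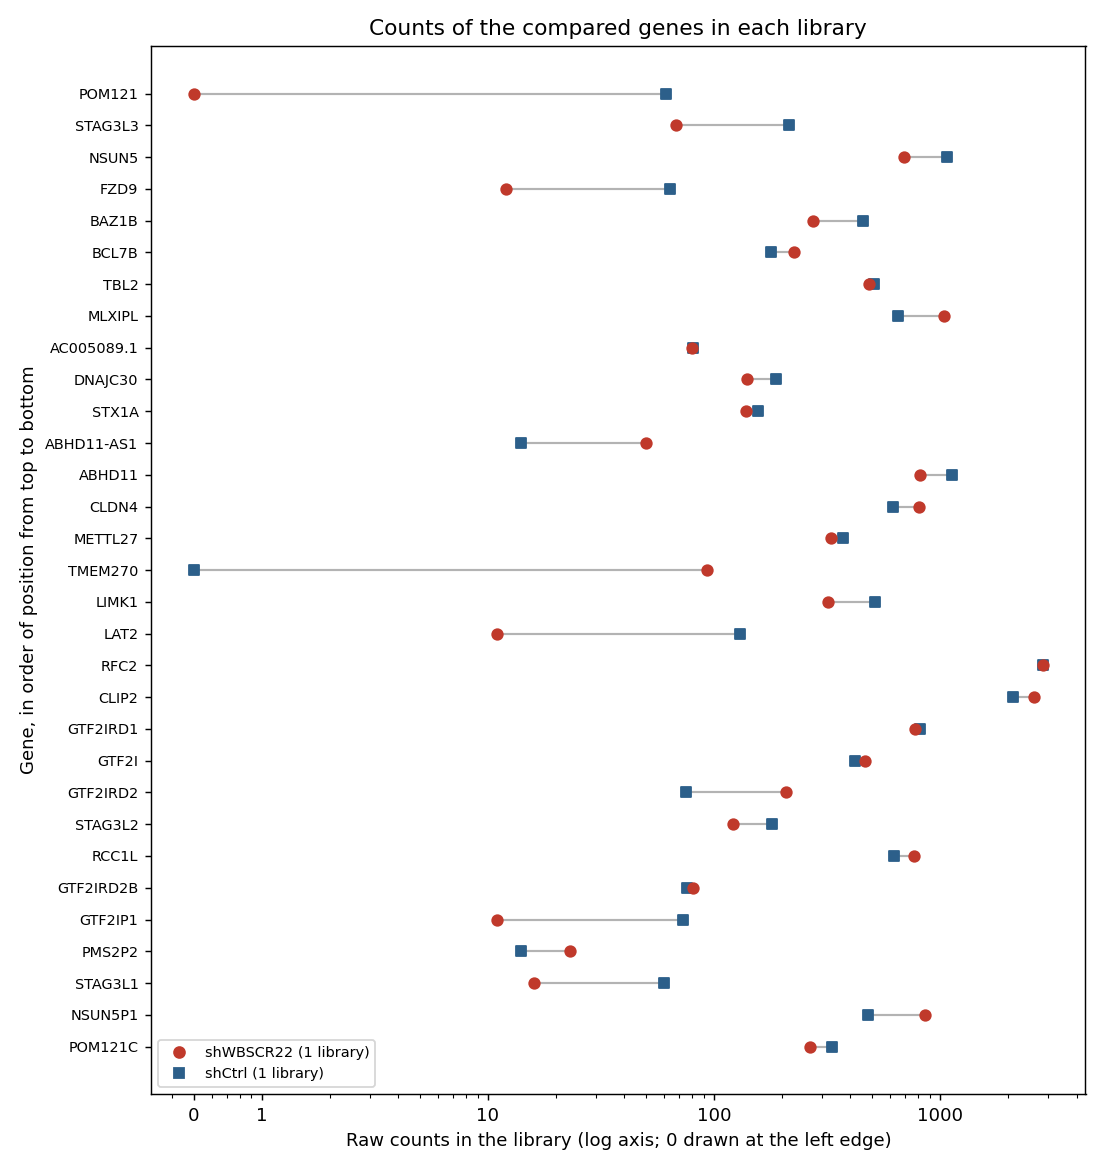
Raw counts (horizontal log axis, with 0 drawn at the left) of the 31 compared members, in order of position from top to bottom. Circles are shWBSCR22 and squares shCtrl, 1 library each. TMEM270 has 93 counts in shWBSCR22 and 0 in shCtrl, whereas RFC2 has 2838 and 2843.

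The genes flanking BUD23 were examined first. DNAJC30, a mitochondrial co-chaperone of the J-domain family, had 140 counts in shWBSCR22 and 188 in shCtrl (log2 ratio -0.26, interval -1.53 to 0.89). STX1A, a SNARE protein of vesicle fusion, had 138 and 156 (-0.01, -1.32 to 1.19). Both intervals held 0 and neither gene was called, in the presence of an unknown number of BUD23 reads from the shared exons. VPS37D, a subunit of the ESCRT-I sorting complex that lies next to DNAJC30, had 2 counts in shWBSCR22 and 0 in shCtrl. ABHD11, a mitochondrial hydrolase beyond STX1A, was among the most abundant members with 816 and 1124 counts, or 23.3 and 30.4 FPKM (-0.30, -0.78 to 0.17). ABHD11-AS1, which meets ABHD11 tail to tail and overlaps it by 65 bases, had 50 counts in shWBSCR22 and 14 in shCtrl. It was higher by the counting interval (1.97, counting interval 1.12 to 2.97), and its wider interval of -1.08 to 5.84 held 0.

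Of 5 transcription factors of the region 1, GTF2IRD2, was called, or 20%, beside 24.1% of all compared genes. All 5 had ratios above 0, as had 49.1% of all compared genes. The wider interval lay above 0 for MLXIPL and GTF2IRD2, as it did for 10.8% of all compared genes. MLXIPL, also known as ChREBP, which turns on glycolytic and lipogenic genes in response to glucose, had 1038 counts in shWBSCR22 and 650 in shCtrl, or 14.1 and 8.35 FPKM. Its log2 ratio of 0.84 had an interval of 0.36 to 1.32, which lay above 0 but short of the size rule, and 6.08% of 2501 genes of similar mean CPM had a higher ratio. AC005089.1, a noncoding RNA within MLXIPL on the same strand that shares no exon base with it, had 80 and 81 counts (0.15, -1.69 to 1.80). GTF2I, which encodes TFII-I, a factor that binds initiator elements and enhancers, had 466 and 418 counts (0.32, -0.37 to 0.99). Its relative GTF2IRD1 had 769 and 809 (0.09, -0.42 to 0.59).

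Chromatin and RNA enzymes went both ways without a call. BAZ1B, the large subunit of a chromatin remodelling complex also called WSTF, had 274 counts in shWBSCR22 and 454 in shCtrl (-0.56, -1.41 to 0.22). BCL7B, a subunit of the SWI/SNF remodellers, had 225 and 179 (0.50, -0.55 to 1.5). METTL27, a putative methyltransferase, had 328 and 370 (-0.01, -0.81 to 0.76). NSUN5, which methylates a cytosine of the large ribosomal RNA and thus acts on the ribosome as BUD23 does, had 689 and 1066 counts, or 13.2 and 19.3 FPKM. Its log2 ratio of -0.46 was the lowest among the 10 members of at least 30 CPM, with an interval of -0.98 to 0.03 that held 0. With total-count scaling the interval of NSUN5 lay below 0.

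RFC2, a subunit of the clamp loader that places the PCNA ring on DNA, was the most abundant member. It had 2838 counts in shWBSCR22 and 2843 in shCtrl, or 83.8 and 79.5 FPKM (0.16, -0.10 to 0.42). CLIP2, a linker at the growing ends of microtubules, had 2601 and 2088 counts, or 23.2 and 17.7 FPKM (0.48, 0.20 to 0.77). LIMK1, the kinase that phosphorylates the actin-severing protein cofilin, had 320 and 513 (-0.51, -1.30 to 0.21). RCC1L, which takes part in building the mitochondrial ribosome, had 765 and 621 (0.47, -0.07 to 0.99). TBL2, a WD-repeat protein of the endoplasmic reticulum, had 484 and 511 (0.09, -0.57 to 0.72). Of these only CLIP2 had an interval clear of 0.

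Of 4 compared membrane genes 1 was higher, 1 lower and 2 neither, where 24.1% of all compared genes were called. The 2 called, TMEM270 and FZD9, lay between 1 and 5 CPM, where 47.9% of genes were called. TMEM270, a multipass membrane protein of little known function, had 93 counts in shWBSCR22 and 0 in shCtrl. Set against 3 counts in shCtrl it was 34.8-fold higher, a fold that depends on that floor. Its counting interval began at 4.79 and its wider one at 1.37 on the log2 scale. Of the 31-base words of its transcripts 0% occur in transcripts of another gene. FZD9, a receptor for Wnt ligands, had 12 counts in shWBSCR22 and 64 in shCtrl. It was lower by the counting interval (-2.20, counting interval -3.27 to -1.35), and the wider one of -8.85 to 0.87 held 0.

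CLDN4, a claudin of tight junctions and a marker of ductal epithelium, had 801 counts in shWBSCR22 and 620 in shCtrl (0.54, 0.0046 to 1.06). The lower end of that interval fell to -0.08 with total-count scaling, so its exclusion of 0 rests on the scaling. CLDN3, the neighbouring claudin, had 0 counts in both libraries.

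LAT2, an adaptor protein of lymphoid and myeloid signalling, had 11 counts in shWBSCR22 and 130 in shCtrl, or 0.158 and 1.77 FPKM. Its log2 ratio was -3.34, with an interval of -10.45 to -0.40, and 1.53% of 3922 genes at a similar level had a lower ratio. NCF1, the cytosolic organiser of the phagocyte NADPH oxidase, had 0 counts in both.

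A list of 14 repeat genes held the POM121, STAG3L and TRIM copies and several pseudogenes, but not NSUN5, GTF2I, GTF2IRD2 or GTF2IRD2B, which are duplicated too. Of its members 7 were compared, of which 0 were higher, 4 lower and 3 neither, where 12.2% of all genes were higher and 11.9% lower. Their median log2 ratio was -1.49, with an interval from order statistics of -6.78 to 0.999 that held 0. Of those called lower, POM121, GTF2IP1 and STAG3L1 lay between 1 and 5 CPM, where 47.9% of all genes were called. Summed over the 14, the list took 1364 counts in shWBSCR22 and 1474 in shCtrl, of which NSUN5P1 held 852 and 478. The sums are 0.00895% (exact binomial interval 0.00848% to 0.00943%) and 0.00914% (0.00868% to 0.00962%) of the libraries. Of the duplicated genes off that list, GTF2IRD2 was higher. POM121, a membrane nucleoporin, had 0 counts in shWBSCR22 and 61 in shCtrl, 18.1-fold lower if 3 counts are set in shWBSCR22. Its counting interval ended at -3.84 on the log2 scale, and its wider interval held 0. Its copy POM121C had 265 and 333 (-0.16, -1.06 to 0.67). Of the 31-base words in POM121 transcripts 39.5% also occur in POM121C, and 72.6% in any other gene.

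STAG3L1, STAG3L2 and STAG3L3 are pseudogene copies of the meiotic cohesin subunit STAG3. STAG3L3 had 68 counts in shWBSCR22 and 215 in shCtrl (-1.49, -3.33 to -0.04), STAG3L2 121 and 180 (-0.41, -1.78 to 0.81), and STAG3L1 16 and 60 (-1.71, -6.94 to 1.13). STAG3L3 was lower by both intervals and STAG3L1 by the counting interval alone. Each copy had fewer counts in shWBSCR22, and their sum was 205 in shWBSCR22 and 455 in shCtrl (-0.98, -1.95 to -0.11). Of its 31-base words STAG3L1 shares 69.6% with STAG3L3, STAG3L2 71.4% with STAG3L3, and STAG3L3 53.9% with STAG3L2. The copies therefore do not count as separate observations.

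**Figure D3:**
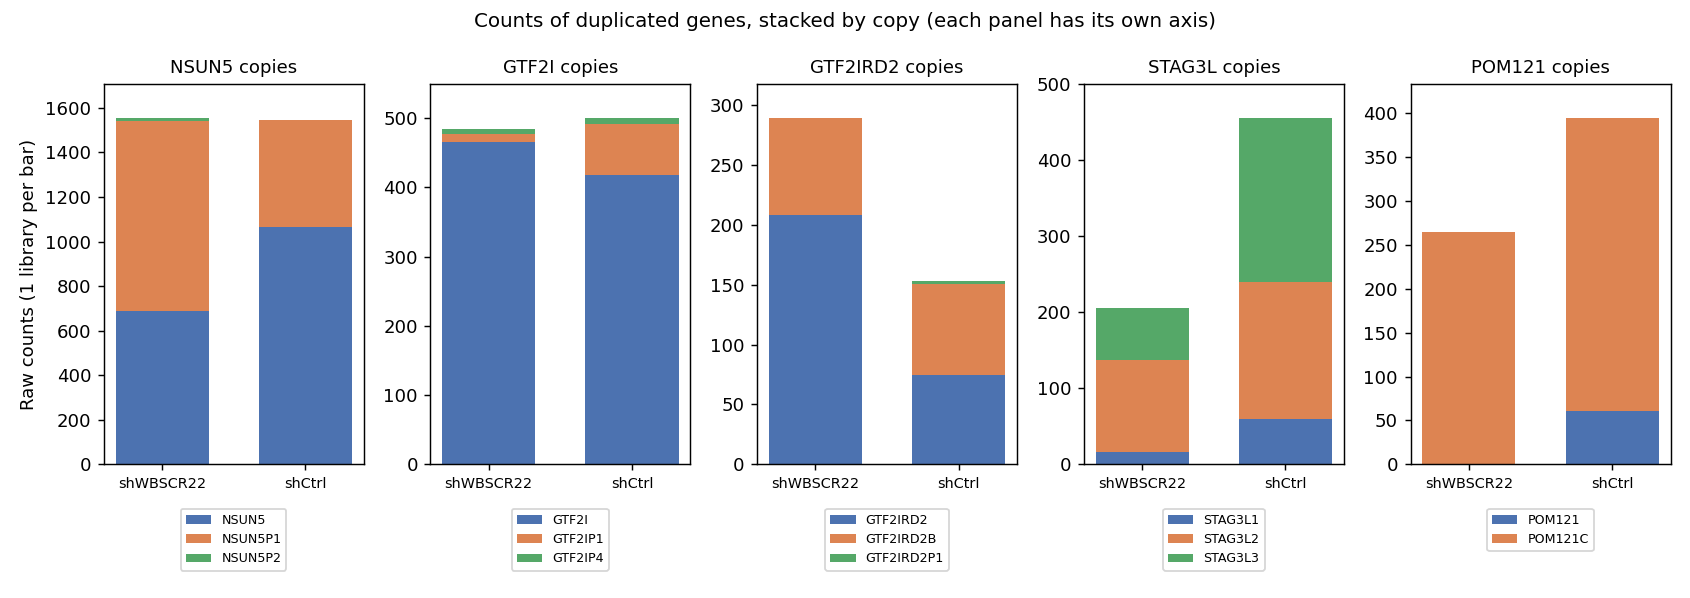
Raw counts of 5 groups of duplicated genes, stacked by copy, with shWBSCR22 left and shCtrl right in each panel and 1 library per bar. The NSUN5 bars have nearly the same height, 1553 and 1544, with different parts, whereas the GTF2IRD2 and STAG3L bars differ in height.

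In the NSUN5 and GTF2I groups the copies had ratios of opposite sign, while the wider interval of the sum held 0. The counting interval of the sum was 0.07 to 0.28 for NSUN5, which left out 0, and -0.06 to 0.30 for GTF2I. NSUN5P1, a transcribed pseudogene of NSUN5 in the upper repeat, had 852 counts in shWBSCR22 and 478 in shCtrl. Its log2 ratio was 0.999 (0.45 to 1.55), just short of the size rule, which it met with the size factors of DESeq2 and with upper-quartile scaling. NSUN5P2 had 12 and 0 counts. The 3 genes together had 1553 counts in shWBSCR22 and 1544 in shCtrl (0.17, -0.18 to 0.53), of which NSUN5 held 44.4% in shWBSCR22 and 69.0% in shCtrl. NSUN5 shares 41.6% of its 31-base words with any other gene, most with NSUN5P2 (31.9%) and POM121 (27.2%). NSUN5P1 shares 63.3% with any other gene, most with POM121 (35.6%) and NSUN5P2 (26.1%). NSUN5 and NSUN5P1 shared no larger part with each other than with these closest genes.

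GTF2IP1 had 11 counts in shWBSCR22 and 73 in shCtrl and was lower by the counting interval (-2.51, counting interval -3.63 to -1.64; wider -9.67 to 0.59). With GTF2I and GTF2IP4 its group had 484 and 500 counts (0.12, -0.54 to 0.75). GTF2IP1 shares 91.7% of its 31-base words with GTF2I. These groups by name were set after the values were seen, and the sources used here do not say how reads with several matches were counted.

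GTF2IRD2, a further member of the TFII-I family, had 208 counts in shWBSCR22 and 75 in shCtrl, or 1.80 and 0.614 FPKM, and was higher by both intervals (1.63, 0.34 to 3.01). GTF2IRD2B, its copy in the other repeat, had 81 and 76 (0.26, -1.59 to 1.93). The GTF2IRD2 copies, GTF2IRD2P1 with 0 and 2 counts included, summed to 289 counts in shWBSCR22 and 153 in shCtrl (log2 interval 0.09 to 2.08). GTF2IRD2 shares 60.7% of its 31-base words with GTF2IRD2B, and GTF2IRD2B 79.9% with GTF2IRD2.

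The lowest members added few counts. Those in a single library with over 3 counts were CASTOR2 (0 in shWBSCR22 and 15 in shCtrl), SPDYE12P and AC211433.2 (0 and 10 each), TYW1B (0 and 9), TRIM74 (0 and 8), AC211476.4 (0 and 7), POM121, TMEM270 and NSUN5P2. TRIM73, a relative of the ubiquitin ligase TRIM50, had 1 and 23 counts, SPDYE5 11 and 19, and GTF2IP4 7 and 9. PMS2P2, a pseudogene of a mismatch repair gene, had 23 and 14 counts (0.86, -3.60 to 5.12). In all, 4 members had counts in shWBSCR22 only and 10 in shCtrl only, which is 7.27% and 18.2% of the 55. Over all 20981 listed genes the shares were 6.64% and 14.3%, so the same imbalance ran through the libraries.

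**Figure D4:**
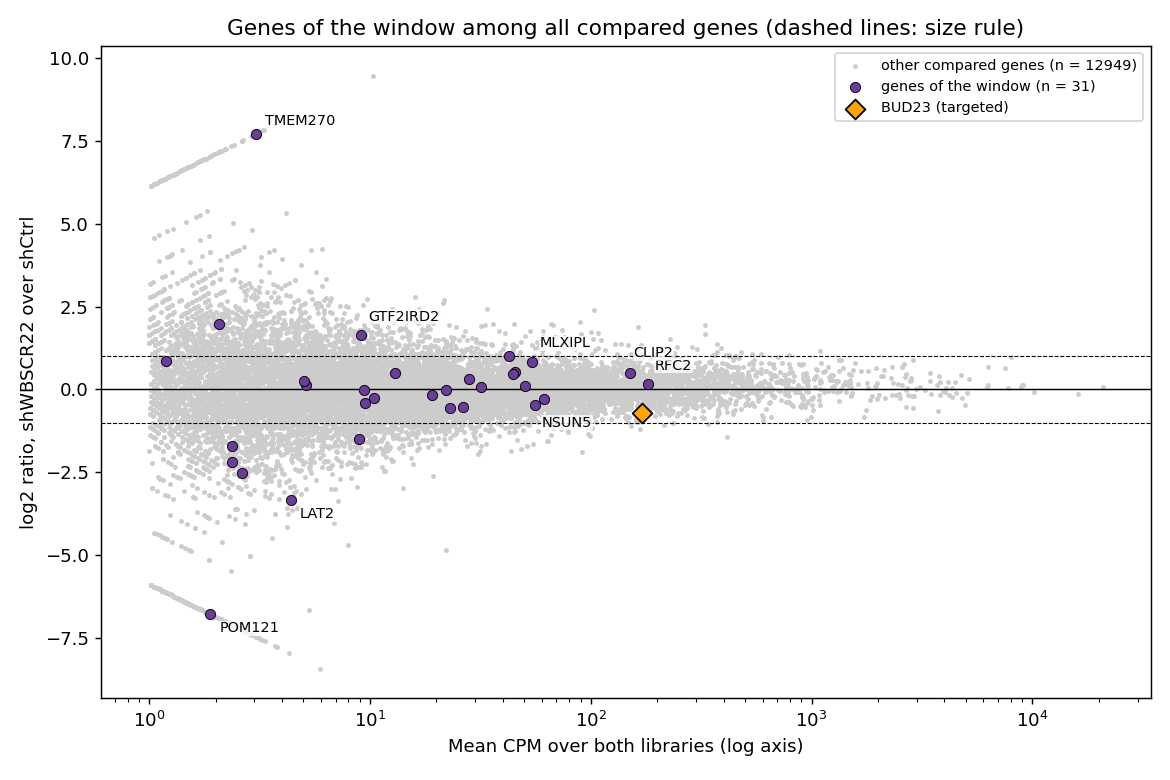
Log2 ratio of shWBSCR22 over shCtrl against the mean CPM over both libraries (log axis) for the 31 compared members, BUD23 and all other compared genes. Dashed lines mark the size rule at a log2 ratio of 1. The members scatter widely below 5 CPM and lie between -0.46 and 1.00 at 30 CPM or more.

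How far a member lay from 0 followed its level. Of 8 members between 1 and 5 CPM 7 were called, where 47.9% of 4127 genes at that level were. Of 13 members between 5 and 30 CPM 2 were called, STAG3L3 and GTF2IRD2, where 19.1% of 5050 genes were. Of 10 members of at least 30 CPM 0 were called, where 5% of 3803 genes were (3.23% higher and 1.76% lower). The median of these 10 was 0.31 and that of all genes of at least 30 CPM was 0.01. Their wider interval lay above 0 for 4, MLXIPL, CLIP2, CLDN4 and NSUN5P1, and below 0 for none, against 24.4% and 17.9% of all genes at that level.

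The coding genes listed by a role of their protein were also taken by themselves, among them the duplicated NSUN5, GTF2I, GTF2IRD2, GTF2IRD2B and NCF1. Of these 24 members 21 were compared, and 2 were higher, 2 lower and 17 neither. The share called was 19.0%, beside 24.1% of all compared genes. Their median was 0.09 on the log2 scale (-0.30 to 0.48).

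Partners and relatives of these proteins encoded elsewhere were read from a fixed list of 44 genes, of which 42 were listed and 36 compared. Of these 4 were higher, 6 lower and 26 neither by the counting interval, with a median log2 ratio of -0.08. The share called, 27.8%, was near the 24.1% of all compared genes, and with the wider interval it was 13.9%, beside 7.17%. CLDN7, a further claudin, had 190 counts in shWBSCR22 and 79 in shCtrl (1.43, 0.11 to 2.79), and FZD1, a further Wnt receptor, 55 and 1 (5.38, counting interval 3.41 to 11.28). Both were higher by either interval, and SNAP23, a SNARE partner of syntaxins, and NSUN6, a relative of NSUN5, by the counting interval alone. NSUN2, a methyltransferase of transfer RNA, had 209 and 481 counts (-1.03, -1.99 to -0.18), STX3, a syntaxin of the apical membrane, 33 and 156 (-2.06, -5.02 to -0.10), and VPS37C, a relative of VPS37D, 53 and 205 (-1.78, -3.92 to -0.18). These were lower by either interval, and LIMK2, RFC3 and STX2 by the counting interval alone. CYBA, a membrane subunit of the NADPH oxidase that NCF1 serves, had 159300 counts in shWBSCR22 and 90782 in shCtrl (0.98, 0.94 to 1.02), short of the size rule. CFL1, the cofilin that LIMK1 phosphorylates, had 20530 and 35064 (-0.61, -0.69 to -0.52). Of the other clamp loader subunits, RFC4 had a log2 ratio of 0.06, RFC5 of -0.07, RFC1 of -0.22 and RFC3 of -1.27, and the wider interval of each held 0, as did that of RFC2.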

How the data were processed

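Counts and FPKM per gene were deposited by the authors in separate tables, 1 column per library. Tools named in the submitters' processing notes were HISAT2, StringTie, DESeq, bcl2fastq and FastQC, and the build was GRCh38. The sources used here give no versions, annotation, strand use or treatment of reads with several matches. Total RNA went into TruSeq RNA libraries (Illumina), per the labels' protocols.

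Groups came from the treatment label. Genes averaging 1 CPM or more were kept, and counts were scaled by TMM (edgeR 4.0.16, R 4.3.3; factors 0.971 in shWBSCR22 and 1.03 in shCtrl). Log2 ratios put shWBSCR22 over shCtrl after adding 0.5 counts. Counting intervals are exact conditional binomial 95% intervals, and the wider ones use counts divided by 15 and 8. Folds against 0 use 3 counts per library and are not interval bounds. Without molecular identifiers reads need not be independent molecules, so all intervals and floors cover counting error only. Coordinates are those of the deposited table, identical to GENCODE release 29 for 54 of 55 members. Shared sequence was counted as 31-base words on either strand. The procedure was tested on simulated data. Members, gene lists and rules were chosen with earlier results of these data known. Named were members of at least 30 CPM, called members, listed members with counts, and partners called by either interval; the remaining RFC subunits, CYBA, CFL1, low members and the copy groups were added after their values were seen. A similar level means a mean CPM between 0.5 and 2 times that of the gene. The alternatives tried were scaling by total counts, by DESeq2 (1.42.0) or by the upper quartile, 2 added counts, other filters, FPKM with a pseudocount of 0.1, the wider interval and subsets of members. The leukocyte marker check is not reported here.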

Additional observations from a re-analysis of the deposited data

How the results depend on the processing

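No paired analysis was possible because each group held 1 library, and for the same reason no library could be left out. Of 29 members named by rule, 29 kept their call with total-count scaling, 2 counts added, the FPKM values and every gene with at least 1 count. With DESeq2 size factors and upper-quartile scaling 28 did, NSUN5P1 being called higher at 1.01 in both. With the wider interval 24 did, and POM121, FZD9, ABHD11-AS1, GTF2IP1 and STAG3L1 were no longer called. The number of members called lower, 6, became 13 with all genes of 1 count or more, 2 with the wider interval and 2 among coding members listed by a role of their protein. At a mean of at least 30 CPM 0 members were called higher and 0 lower, and 0 partners, which by construction leaves out the low genes. The number of partners called, 10, became 5 with the wider interval. The share of all compared genes called was 37.1% with every gene of at least 1 count, 4.97% at 30 CPM and 7.17% with the wider interval. The log2 ratio of BUD23 was -0.80 with total-count scaling and -0.80 with FPKM. The summed counts of the region had a log2 ratio of 0.18, which became 0.092 with total-count scaling and 0.25 over members of at least 30 CPM. The median of the members ran from -0.22 with every gene of at least 1 count to 0.29 at 30 CPM. It was 0.0021 with total-count scaling and 0.00059 with FPKM. It did not move when genes at 0 in 1 library were set to their fold against 3 counts, a check chosen after seeing the data. The compared members concerned, POM121 and TMEM270, stayed on their sides of the median, so this check could not move it. Under total-count scaling the wider interval lay above 0 for 5 members, against 6 with TMM, CLDN4 being lost, and below 0 for 3, against 2, NSUN5 being added; this was also chosen after seeing the data. Under 1 CPM lay 24 of 55 members, which were not compared.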
